A study of Mus musculus with 3 samples.

Results

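The genes described here are the platelet-derived growth factor (PDGF) ligands Pdgfa, Pdgfb and Pdgfd, their receptors Pdgfra and Pdgfrb, and 5 genes known from pericytes, Rgs5, Kcnj8, Abcc9, Vtn and Notch3. They were taken by name, with earlier results of these data known, and all 10 were found among the 17126 genes listed in the deposited single-cell tables. Their transcripts, counted as unique molecular identifiers (UMIs), were followed through every cell of the 3 libraries, and particular attention was given to the cells that hold the Rgs5 and Kcnj8 UMIs.

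The cells came from the hearts of adult mice. Hearts were digested with collagenase II, a low-speed spin removed most cardiomyocytes, and the remaining interstitial cells were sorted by flow cytometry on surface Lin28, an RNA-binding protein, and on surface cKit, a receptor tyrosine kinase. The 3 sorted populations were Lin28+ cKit+ with 1176 cells, Lin28+ cKit- with 681 cells and Lin28- cKit- with 3976 cells, 5833 in all. Each population is 1 library made with the 10x Chromium 3' v3.1 chemistry, so there is no replicate and no test between populations. Levels are in CPM, the gene's UMIs per 1000000 UMIs of the same cells. Ratios are given with 95% intervals that cover counting error only. The sources used here do not give the number, sex, strain or exact age of the animals. The populations were set beside each other in 2 pairs, Lin28+ cKit- against Lin28- cKit- for the Lin28 sort and Lin28+ cKit+ against Lin28+ cKit- for the cKit sort. Both pairs use the Lin28+ cKit- library. Lin28 transcripts were not analysed here.

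The libraries held 10400648, 7401174 and 34031955 UMIs for Lin28+ cKit+, Lin28+ cKit- and Lin28- cKit-. Their median depth per cell was 8068.5, 9628 and 8630 UMIs, and their median mitochondrial share was 6.46%, 6.11% and 4.90%. The Lin28+ cKit+ library shared 8 cell barcodes with the Lin28- cKit- library and 1 with the Lin28+ cKit- library, and the other pair shared 0. Cells were clustered without Kit and without the 10 genes, and clusters were named from marker lists. Macrophage-like cells numbered 609, 276 and 18 and fibroblast-like cells 12, 40 and 2771 in the same order, while endothelial-like cells numbered 399, 234 and 820. The mural-like cluster, meaning pericytes and smooth muscle cells together, held only 5, 9 and 37 cells.

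PDGF ligands are secreted dimers that bind the receptor tyrosine kinases encoded by Pdgfra and Pdgfrb. Endothelial cells release PDGF-B, and pericytes, the contractile cells wrapped around capillaries, carry the beta receptor and depend on it for their recruitment to vessels. The alpha receptor is known as a marker of cardiac fibroblasts. Kcnj8 and Abcc9 encode the pore Kir6.1 and the regulatory subunit SUR2 of the ATP-sensitive potassium channel of vascular mural cells, Rgs5 encodes a regulator of G-protein signalling, Vtn the matrix protein vitronectin, and Notch3 a receptor for ligands on neighbouring endothelial cells.

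The 10 genes lie on 8 mouse chromosomes in the mm10 build, and only Kcnj8 and Abcc9 are neighbours. In the GENCODE annotation Kcnj8 spans chr6:142564837-142571614 and Abcc9 chr6:142587862-142702315, both on the minus strand, with 16247 bases and 0 annotated genes between them. Rgs5 spans chr1:169655501-169695813 and Vtn chr11:78499091-78502324, both on the plus strand. Because these 4 genes are among the leading genes of the mural-like cluster, the genomic sequence just before each start is shown from RefSeq's GRCm38.p6 table. Capitals mark 2 motifs searched on both strands, the E-box CANNTG and the core TGGGAA bound by RBPJ, the DNA-binding partner of Notch receptors. The CArG box, bound by serum response factor, was searched as well and had no match in these 4 windows.
Rgs5: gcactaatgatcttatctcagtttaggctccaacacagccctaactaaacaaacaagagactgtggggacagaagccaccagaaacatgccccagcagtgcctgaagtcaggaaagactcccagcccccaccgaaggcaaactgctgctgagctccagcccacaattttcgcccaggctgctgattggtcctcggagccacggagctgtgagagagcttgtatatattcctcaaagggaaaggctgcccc
Kcnj8: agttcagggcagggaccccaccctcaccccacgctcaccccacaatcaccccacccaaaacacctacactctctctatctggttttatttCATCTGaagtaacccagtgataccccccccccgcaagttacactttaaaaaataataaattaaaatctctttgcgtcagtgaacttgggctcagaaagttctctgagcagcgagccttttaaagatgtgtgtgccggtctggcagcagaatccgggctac
Abcc9: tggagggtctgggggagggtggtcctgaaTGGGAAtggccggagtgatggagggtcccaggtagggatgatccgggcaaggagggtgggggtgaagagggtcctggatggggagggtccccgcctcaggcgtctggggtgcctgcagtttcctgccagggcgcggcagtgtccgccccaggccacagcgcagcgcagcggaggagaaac
Vtn: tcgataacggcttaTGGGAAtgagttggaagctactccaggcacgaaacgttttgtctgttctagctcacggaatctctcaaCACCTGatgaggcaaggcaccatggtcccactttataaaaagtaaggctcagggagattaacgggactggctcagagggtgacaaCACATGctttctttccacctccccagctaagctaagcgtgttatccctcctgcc
The Rgs5 window (chr1:169655251-169655500, plus strand) held no match to any of the 3 motifs. The Kcnj8 window (chr6:142571615-142571864, minus strand) held 1 E-box. The Abcc9 window (chr6:142702316-142702524, minus strand) held 1 TGGGAA core, and the Vtn window (chr11:78498870-78499090, plus strand) held 2 E-boxes and 1 TGGGAA core, with no motif overlapping another. Of 32851 RefSeq promoter windows of 250 bases, 66.2% held an E-box, 21.6% a TGGGAA core and 1.47% a CArG box. For windows of 221 bases, as for Vtn, the E-box share was 62.2% and the TGGGAA share 19.5%, and for 209 bases, as for Abcc9, the TGGGAA share was 18.6%. The matches describe letters, not binding sites.

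The mural-like cluster took its name from its markers, with 10 of 10 pericyte markers and 7 of the 9 smooth muscle markers present high over the other clusters. Both lists passed, so the cluster was called mural-like and not split. The 10 genes were used neither in the clustering nor in the marker lists, but they come from the same cells, so their height in the cluster is a description. Its leading genes were Rgs5, Vtn, Higd1b, Rgs4, Kcnj8, Abcc9, Tagln, Acta2, Myh11 and Steap4. The smooth muscle genes lay in a minority of its cells: in Lin28- cKit-, Acta2 was found in 11 of 37 cells, whereas Higd1b, a pericyte gene, was found in 32. Endothelial markers made up 1.80%, 1.19% and 0.634% of the UMIs of mural-like cells in Lin28+ cKit+, Lin28+ cKit- and Lin28- cKit-. The part of endothelial RNA in the mural-like values was not tested.

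**Figure D1:**
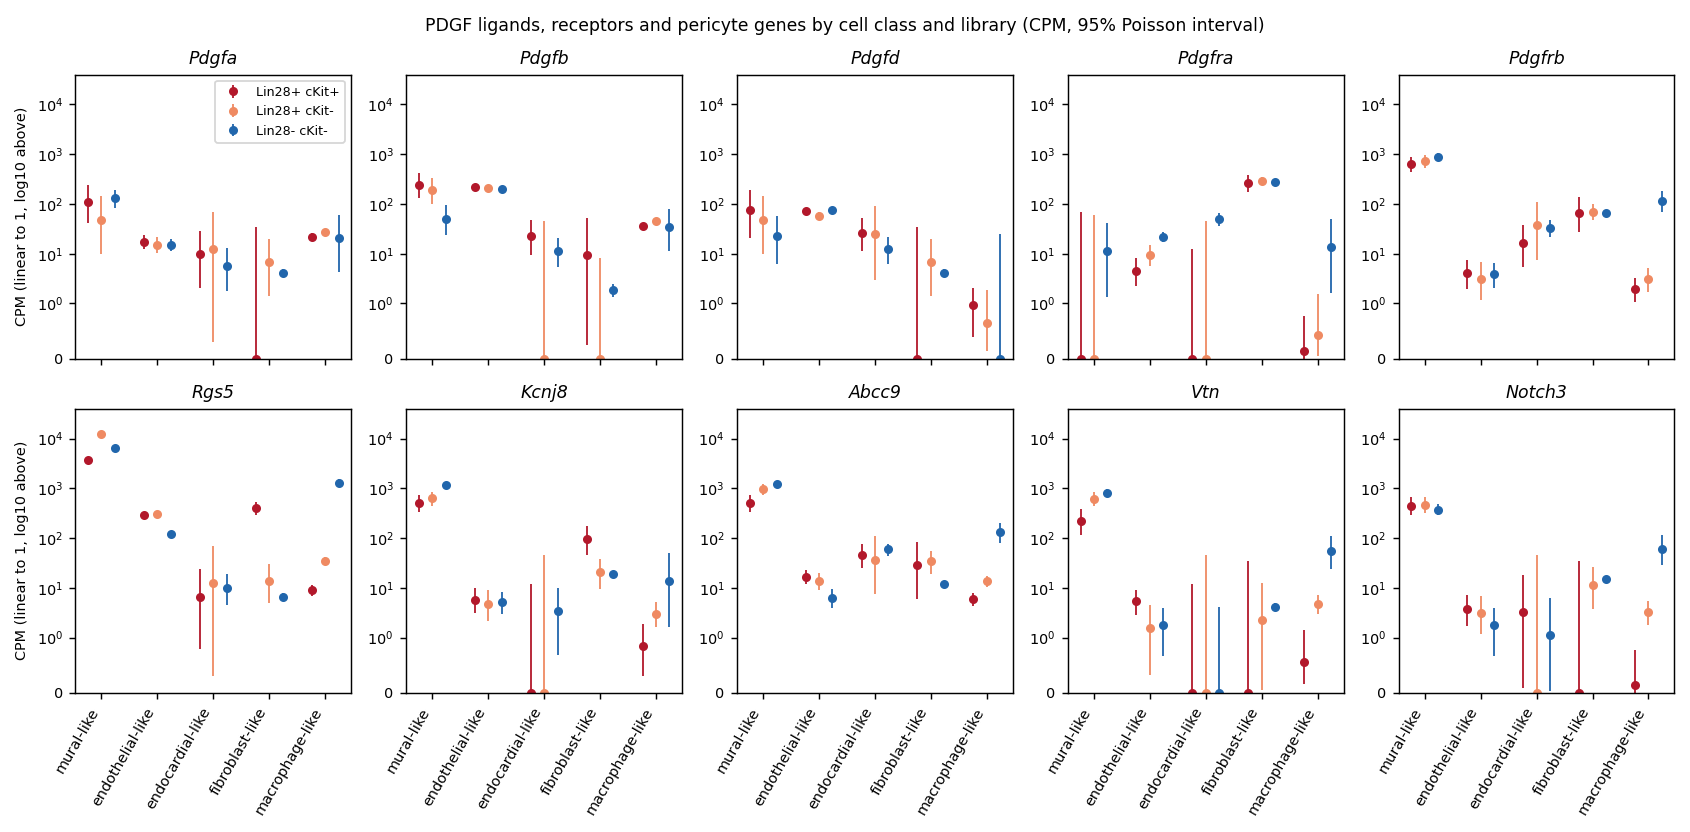
Level of each of the 10 genes (CPM, axis linear up to 1 and log10 above) in mural-like, endothelial-like, endocardial-like, fibroblast-like and macrophage-like cells of each library (points), with lines for the 95% Poisson interval. Pdgfra is highest in fibroblast-like cells (282 CPM in Lin28- cKit-) and Pdgfrb in mural-like cells (889 CPM in Lin28- cKit-), while Pdgfb stands at 217, 211 and 203 CPM in endothelial-like cells.

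Among the ligands, Pdgfb UMIs lay mainly in endothelial-like cells, at nearly the same level in every library. The level was 217, 211 and 203 CPM in endothelial-like cells of Lin28+ cKit+, Lin28+ cKit- and Lin28- cKit-, from 523, 403 and 678 UMIs. At least 1 Pdgfb UMI was found in 62.9%, 66.2% and 49.3% of these cells, at median depths of 5456, 7694.5 and 3830.5 UMIs. After each cell was thinned to 1000 UMIs the shares were 19.5%, 18.1% and 19.2%. The endothelial-like cells thus differed in depth between the libraries, and at equal depth their Pdgfb shares lay close together. Mural-like cells had 242, 194 and 51.0 CPM, from only 13, 12 and 9 UMIs.

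Pdgfb differed more between endothelial-like clusters than between sorted populations. Pdgfb was lowest in the cluster led by Vegfc and Col13a1, at 68.0, 59.3 and 55.2 CPM. It stood at 264, 263 and 256 CPM in the cluster led by Hey1, Sox17 and Sema3g, genes known from arteries, and in the cluster led by Car4 and Timp4, genes known from capillaries, at 225, 256 and 226. Endocardial-like cells, which line the chambers, had 23.1, 0 and 11.2 CPM. Macrophage-like cells of the Lin28+ libraries had 35.3 and 45.0 CPM from 252 and 207 UMIs. Over all cells the level was 78.5, 85.1 and 23.5 CPM, and the libraries differ in how many of their cells are endothelial-like or macrophage-like.

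Pdgfd, whose product signals mainly through the beta receptor, was found in endothelial-like cells. Its level in endothelial-like cells was 73.1, 57.6 and 76.4 CPM in Lin28+ cKit+, Lin28+ cKit- and Lin28- cKit-. The Hey1 cluster had 125, 96.8 and 115 CPM. The Car4 cluster had 57.6, 55.9 and 64.9 CPM, less than the Hey1 cluster in each library. Mural-like cells had 74.5, 48.4 and 22.7 CPM from only 4, 3 and 4 UMIs. Macrophage-like cells were close to 0, with 0.981 and 0.652 CPM in the Lin28+ libraries.

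Pdgfa, the ligand of the alpha receptor, was sparse in endothelial-like and macrophage-like cells. Endothelial-like cells had 17.5, 15.2 and 15.3 CPM and macrophage-like cells 22.0, 27.0 and 20.5. Mural-like cells had 112, 48.4 and 130 CPM from 6, 3 and 23 UMIs, and in Lin28- cKit- these lay in 12 of 37 cells. The 11 Schwann-like cells of Lin28- cKit- held 31 Pdgfa UMIs in 10 cells, which is 655 CPM. The single Schwann-like cell of Lin28+ cKit- held 3 UMIs and that of Lin28+ cKit+ held 0.

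The 2 receptors lay in different cells. Pdgfra was found at 268, 294 and 282 CPM in fibroblast-like cells of Lin28+ cKit+, Lin28+ cKit- and Lin28- cKit-, from 28, 130 and 7944 UMIs, and in 85.7% of the fibroblast-like cells of Lin28- cKit-. Mural-like cells held 0, 0 and 2 Pdgfra UMIs. Endothelial-like cells had 4.57, 9.43 and 22.2 CPM of Pdgfra, and the fibroblast marker list in the same cells stood at 0.00864%, 0.0131% and 0.320% of UMIs. The part of fibroblast RNA in these endothelial values was not tested.

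Pdgfrb was highest in mural-like cells and was shared with fibroblast-like cells. It stood at 633, 726 and 889 CPM in mural-like cells, from 34, 45 and 157 UMIs. In fibroblast-like cells it stood at 66.9, 70.2 and 66.8 CPM, a lower and more even level. Endothelial-like cells had 4.16, 3.14 and 3.90 CPM. Over all cells Pdgfrb was at 6.83, 13.6 and 62.6 CPM, the same order as the number of fibroblast-like cells in the libraries.

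The class with the largest share of Rgs5 UMIs was endothelial-like in Lin28+ cKit+ and mural-like in Lin28+ cKit- and Lin28- cKit-. The libraries held 1008, 1549 and 1973 Rgs5 UMIs. Mural-like cells held 20.04% of them in Lin28+ cKit+ (95% interval 17.6 to 22.6), 50.5% in Lin28+ cKit- (48.0 to 53.1) and 58.0% in Lin28- cKit- (55.8 to 60.2). Endothelial-like cells held 68.7% in Lin28+ cKit+ (65.7 to 71.5), 38.2% in Lin28+ cKit- (35.8 to 40.7) and 20.5% in Lin28- cKit- (18.8 to 22.4). These shares depend on the naming: when each cell was classed on its own markers, the mural-like share was 7.64%, 13.8% and 59.1% and the endothelial-like share 84.6%, 67.3% and 29.4%, so that endothelial-like cells were then the larger class in Lin28+ cKit- too. In Lin28+ cKit+ the mural-like share was 36.1% at clustering resolution 2 and 31.9% with the 10 genes allowed in the clustering. Macrophage-like cells held 6.25%, 10.4% and 9.68%, and fibroblast-like cells 4.17%, 0.387% and 9.53%.

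Few cells carried most of these UMIs. 50% of the Rgs5 UMIs lay in 13 cells of Lin28+ cKit+, 8 cells of Lin28+ cKit- and 20 cells of Lin28- cKit-. The richest cell of each library held 120, 141 and 190 UMIs. In mural-like cells Rgs5 ranged from 17 to 68 UMIs per cell with a median of 31 in Lin28+ cKit+, from 5 to 141 with a median of 106 in Lin28+ cKit-, and from 0 to 65 with a median of 30 in Lin28- cKit-. It was found in 5 of 5, 9 of 9 and 36 of 37 mural-like cells, and the ranges of UMIs per cell in the 3 libraries overlapped. The mural-like cells differed in depth, with medians of 11122, 5227 and 3839 UMIs in the same order. Their Rgs5 level was 3764, 12632 and 6479 CPM in Lin28+ cKit+, Lin28+ cKit- and Lin28- cKit-. The counting intervals, 3263 to 4320, 11762 to 13549 and 6109 to 6865, did not overlap. They cover counting error only, and the cells are few.

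**Figure D2:**
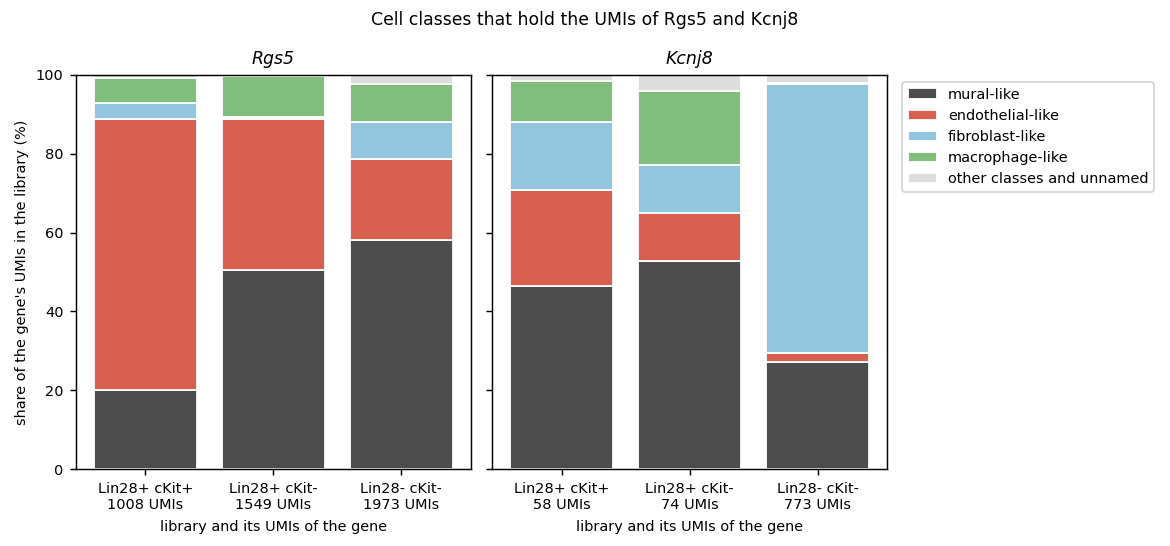
Share of the Rgs5 UMIs and of the Kcnj8 UMIs (percent of the library's UMIs of that gene) held by each cell class in each library. Endothelial-like cells hold 68.7% of Rgs5 UMIs in Lin28+ cKit+, and fibroblast-like cells hold 68.3% of Kcnj8 UMIs in Lin28- cKit-.

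Rgs5 was found in endothelial-like cells more often than in macrophage-like cells of the Lin28+ libraries. Its level in endothelial-like cells was 288 CPM in Lin28+ cKit+ (95% interval 266 to 310), 310 in Lin28+ cKit- (286 to 336) and 121 in Lin28- cKit- (110 to 134), from 692, 592 and 405 UMIs. At least 1 UMI was found in 118 of 399 (29.6%), 93 of 234 (39.7%) and 123 of 820 (15%) endothelial-like cells. In macrophage-like cells, which should lack the gene, that share was 6.57% in Lin28+ cKit+ and 9.06% in Lin28+ cKit-, although these cells were deeper, with medians of 9970 and 13879 UMIs. After thinning to 1000 UMIs the endothelial-like shares were 14.4%, 15.1% and 7.26%, against 0.328% and 1.09% in macrophage-like cells of the Lin28+ libraries. Lin28- cKit- had only 18 macrophage-like cells, 2 of them with a UMI, and 4.87% of its fibroblast-like cells had one at a median depth of 10127 UMIs (0.772% after thinning). Endocardial-like cells, also endothelial in kind, held 2, 1 and 9 Rgs5 UMIs, or 6.60, 12.3 and 10.1 CPM.

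The endothelial-like Rgs5 UMIs were present in each of the endothelial-like clusters. The Car4 cluster had 271, 343 and 113 CPM. The Hey1 cluster had 401, 415 and 169, and the Vegfc cluster 129, 164 and 53.7. In all 3 clusters both Lin28+ libraries lay above Lin28- cKit-. The ratio of Lin28+ cKit- over Lin28- cKit- was 3.03 (95% interval 2.53 to 3.65), 2.46 (1.89 to 3.16) and 3.06 (2.01 to 4.72) in the Car4, Hey1 and Vegfc clusters.

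Most endothelial-like Rgs5 UMIs lay in cells without any UMI of Pdgfrb, Kcnj8, Abcc9, Vtn or Notch3. Such cells held 61.0%, 55.4% and 66.2% of the endothelial-like Rgs5 UMIs, at 195, 203 and 86.1 CPM. A minority of cells carried many UMIs: 17, 21 and 12 endothelial-like cells had at least 10 Rgs5 UMIs, together 402, 370 and 158. Of these, 2, 1 and 0 cells also had UMIs of at least 3 of the other 5 genes. When the 4, 3 and 4 endothelial-like cells with UMIs of at least 3 of the 6 genes (Rgs5 and those 5) were left out, Rgs5 stood at 219, 308 and 112 CPM.

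Endothelial-like cells with an Rgs5 UMI also held more of the other pericyte genes than those without. The pericyte marker list, which holds none of the 10 genes, was 3.80 times as high in Lin28+ cKit+ (95% interval 2.85 to 5.10), 3.19 times in Lin28+ cKit- (2.12 to 4.90) and 2.25 times in Lin28- cKit- (1.71 to 2.94). Abcc9 had 37 UMIs in Lin28+ cKit+ endothelial-like cells with Rgs5 and 3 in those without. Of the 37, 19 and 3 lay in 2 cells that had 5 and 4 of the other 5 genes. The same 2 cells held 52 and 14 of the 146 UMIs of the pericyte marker list in Lin28+ cKit+ cells with Rgs5. Endothelial markers stood at 1.04, 1.00 and 0.96 times and Pdgfb at 1.10, 1.06 and 1.10 times the level of the cells without Rgs5. Cells with an Rgs5 UMI were deeper, with medians of 5906.5, 8312 and 4279 UMIs against 5002, 7301 and 3748. That list made up 0.00910%, 0.00618% and 0.00776% of endothelial-like UMIs in the 3 libraries, with 8, 9 and 10 of its 10 genes seen. The part of pericyte RNA in the endothelial-like Rgs5 level was not tested.

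**Figure D3:**
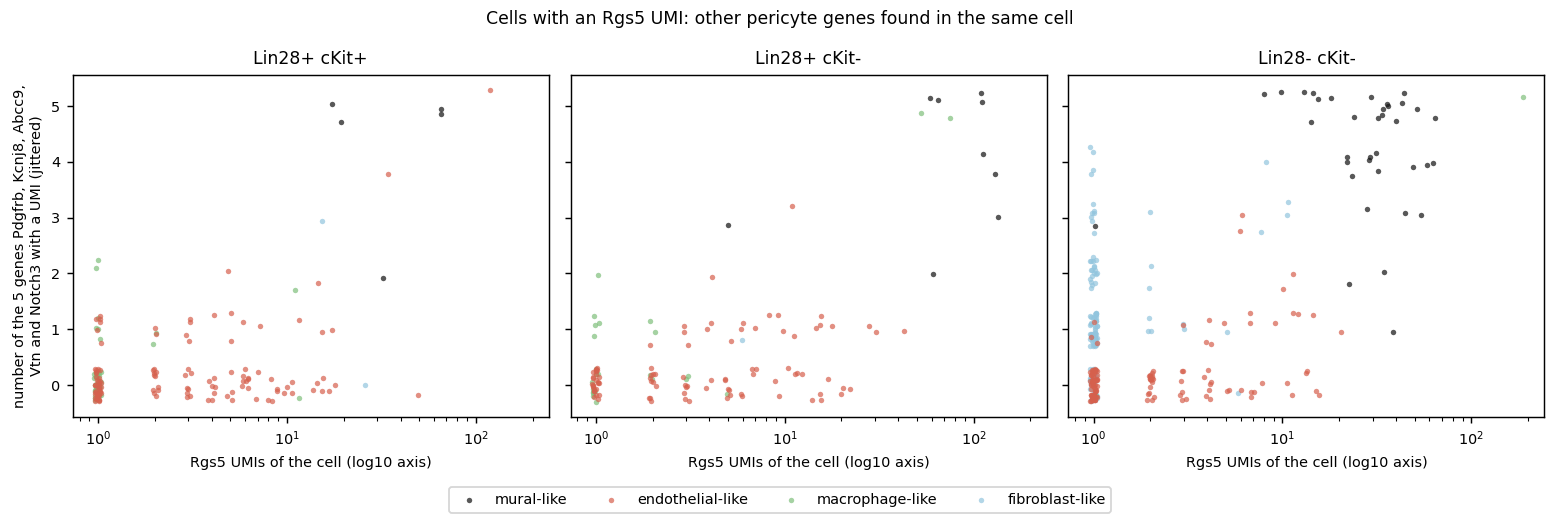
Each point is a cell with an Rgs5 UMI: its Rgs5 UMIs (log10 axis) against how many of Pdgfrb, Kcnj8, Abcc9, Vtn and Notch3 had a UMI in it (jittered), coloured by class, with a panel for each library. Mural-like cells reach 141 UMIs with several of the 5 genes present, while 61.0%, 55.4% and 66.2% of endothelial-like Rgs5 UMIs lie in cells at 0.

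Some Rgs5-rich cells sat in clusters of another name. Outside the mural-like cluster 59 cells held at least 10 Rgs5 UMIs, 1333 UMIs in all, and 9 of them had at least 3 of the other 5 genes. The richest, in Lin28- cKit-, had 190 Rgs5 UMIs, 17 Pdgfrb UMIs and 19 Abcc9 UMIs, and 0 UMIs of the macrophage markers, yet it fell in a small macrophage-like cluster led by cell cycle genes. With it the 18 macrophage-like cells of Lin28- cKit- had 1305 CPM, and without it 7.90. In Lin28+ cKit+ 42 Rgs5 UMIs of the fibroblast-like cells lay in 2 of 12 cells.

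Kcnj8 followed another pattern. The libraries held 58, 74 and 773 Kcnj8 UMIs. Mural-like cells held 46.6% of them in Lin28+ cKit+ (95% interval 33.3 to 60.1), 52.7% in Lin28+ cKit- (40.8 to 64.4) and 27.2% in Lin28- cKit- (24.1 to 30.5). Fibroblast-like cells held 17.2%, 12.2% and 68.3% (64.9 to 71.6 in Lin28- cKit-), and endothelial-like cells 24.1%, 12.2% and 2.20%. With each cell classed on its own markers, mural-like cells held 3.45%, 8.11% and 26.4% and endothelial-like cells 69.0%, 54.1% and 3.36%, so the largest class in both Lin28+ libraries depends on the naming. In Lin28- cKit- the UMIs were thus spread over many cells, with 50% of them in 62 cells, whereas 4 cells of Lin28+ cKit+ and 3 cells of Lin28+ cKit- held that share.

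In mural-like cells Kcnj8 stood at 503, 629 and 1189 CPM, in 4 of 5, 7 of 9 and 29 of 37 cells. The richest mural-like cell held 13, 17 and 17 UMIs, with medians of 6, 2 and 5. Endothelial-like cells had 5.82, 4.72 and 5.10 CPM, from only 14, 9 and 17 UMIs. Their share of cells with a UMI, 1.504%, 2.56% and 1.83%, stood beside 0.985% and 1.81% in the deeper macrophage-like cells of the Lin28+ libraries, with overlapping intervals. A difference from those cells was not detectable at this depth. The 4 endothelial-like cells of Lin28+ cKit+ with at least 3 of the 6 genes held 10 of the 14 UMIs there.

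The Kcnj8 UMIs of Lin28- cKit- fibroblast-like cells lay mostly in 2 of 6 fibroblast-like clusters. Cluster 1, led by Hsd11b1, Gsta3, Thbs2 and Fap, had 38.6 CPM, with a UMI in 19.1% of its 782 cells. Cluster 2, led by Hsd11b1, G0s2 and Smoc2, had 33.6 CPM, with a UMI in 14.04% of its 762 cells. The other 4 clusters stood between 1.08 and 3.28 CPM, so that the 2 ranges lay far apart. The share over all fibroblast-like cells, 10.2% at full depth and 2.21% after thinning, was above that of endothelial-like cells of the same library, 1.83% and 0.738%.

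These 2 clusters were set beside the other 4 after their Kcnj8 values had been seen, so the ratios that follow are a description. Kcnj8 stood at 36.4 against 2.08 CPM (498 and 30 UMIs). Abcc9, its channel partner, stood at 21.3 against 2.91 CPM, a ratio of 7.33 (95% interval 5.29 to 10.4). Vtn stood at 7.24 against 1.25, a ratio of 5.82 (3.50 to 10.2), and Notch3 at 26.0 against 5.33, a ratio of 4.88 (3.80 to 6.32). Pdgfrb was 1.72 times as high (1.57 to 1.89), whereas Pdgfra, at 287 against 278 CPM, had a ratio of 1.03 (0.99 to 1.08). The cells of the 2 clusters were shallower, with a median of 9005 UMIs against 11747.

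Within each of these clusters the cells with a Kcnj8 UMI also held more of the other mural genes. In cluster 1, 149 cells with a Kcnj8 UMI had Abcc9 at 6.80 times (95% interval 4.90 to 9.50) the level of the 633 cells without, and in cluster 2, 107 cells had it at 7.21 times (5.02 to 10.4) the level of the 655 without. Notch3 was at 2.35 and 3.35 times and Pdgfrb at 1.34 and 2.02 times in the same 2 clusters. Rgs5 was at 2.54 (1.24 to 5.05) and 7.55 (4.71 to 12.2) times, and Vtn at 3.51 and 6.83 times. Of the 43 Rgs5 UMIs in cluster 2 cells with Kcnj8, 22 lay in 2 shallow cells of 1972 and 829 UMIs. Each of these cells had 3 of the other 5 pericyte genes. The part of mural RNA in these values was not tested. Pdgfra, the fibroblast receptor, was at 0.976 and 0.901 times, and so was present in cells with Kcnj8 at nearly the same level as in cells without.

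**Figure D4:**
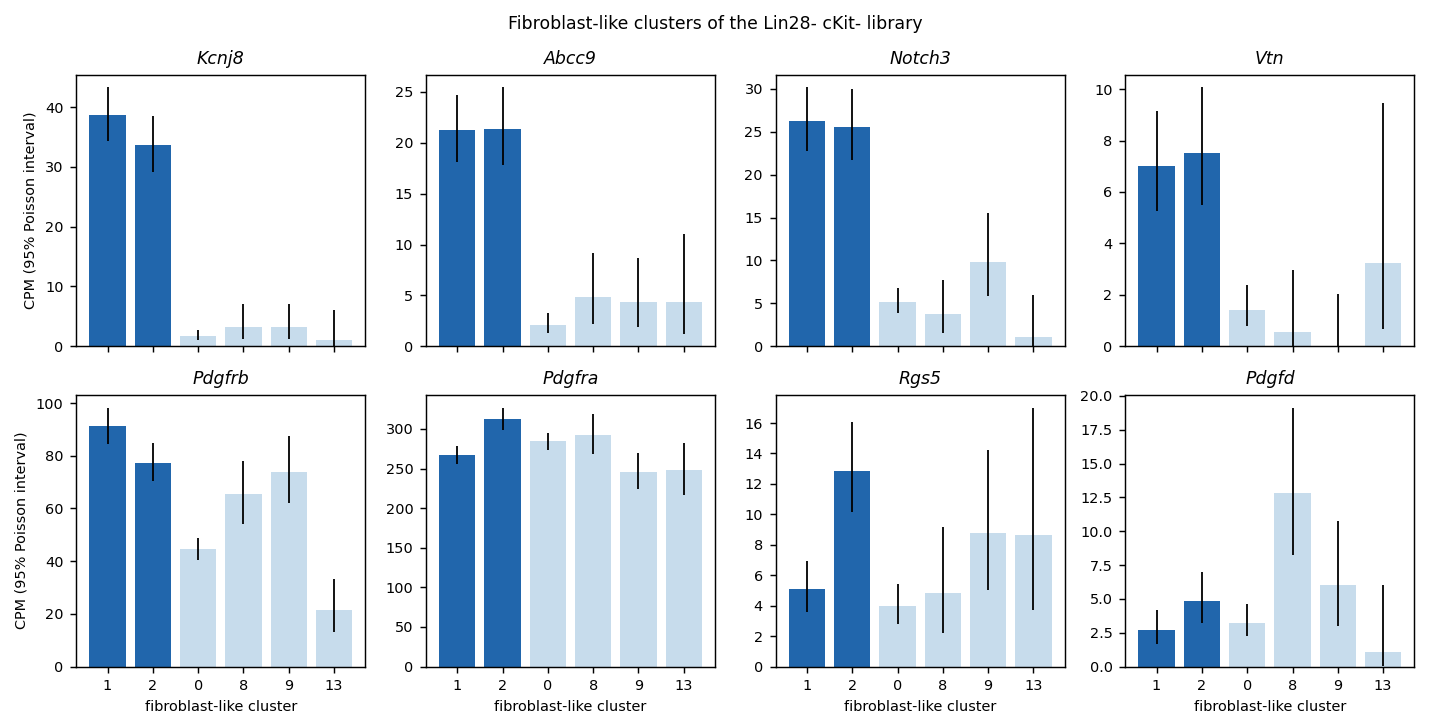
Levels of Kcnj8, Abcc9, Notch3, Vtn, Pdgfrb, Pdgfra, Rgs5 and Pdgfd (bars, CPM, with 95% Poisson intervals as lines) in each fibroblast-like cluster of Lin28- cKit-. Clusters 1 and 2 have 38.6 and 33.6 Kcnj8 CPM and the other clusters at most 3.28, while Pdgfra lies between 246 and 312 in all of them.

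Rgs5 and Kcnj8 were therefore found in unequal ratios across classes. In mural-like cells there were 7.48 (95% interval 4.99 to 11.6), 20.1 (14.6 to 28.5) and 5.45 (4.70 to 6.34) Rgs5 UMIs per Kcnj8 UMI in Lin28+ cKit+, Lin28+ cKit- and Lin28- cKit-. In endothelial-like cells there were 49.4, 65.8 and 23.8 (14.7 to 41.3 in Lin28- cKit-). In fibroblast-like cells of Lin28- cKit- there were 0.356 (0.30 to 0.421). Within each library the intervals of mural-like and endothelial-like cells did not overlap.

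The remaining pericyte genes, Abcc9, Vtn and Notch3, stood higher in mural-like cells than in the other classes given here. Abcc9 stood at 503, 952 and 1223 CPM in mural-like cells, and at 46.2, 37.0 and 59.4 in endocardial-like cells, from 14, 3 and 53 UMIs. Endocardial-like cells held only 0, 0 and 3 Kcnj8 UMIs. Vtn stood at 224, 613 and 804 CPM in mural-like cells and at 4.16 in fibroblast-like cells of Lin28- cKit-. Fibroblast-like cells of Lin28- cKit- held 117 of its 275 Vtn UMIs, 99 of them in clusters 1 and 2. Vtn also stood at 4.78 CPM in macrophage-like cells of Lin28+ cKit-. Without the 3 of these cells that held at least 3 of the 6 genes it stood at 0.441. Notch3 stood at 447, 468 and 374 in mural-like cells, and at 15.4 in fibroblast-like cells of Lin28- cKit-. Endothelial-like cells were at 5.40, 1.57 and 1.80 for Vtn and at 3.74, 3.14 and 1.80 for Notch3.

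Across the 5833 cells the genes with the most similar pattern were named by Pearson's r of log-normalised values over 10584 genes. Cells share libraries and depth, so r is a description with no test. The closest genes to Rgs5 were Higd1b (r = 0.544), Vtn (0.476) and Abcc9 (0.437), and those closest to Kcnj8 were Vtn (0.559), Abcc9 (0.557) and Rgs4 (0.512). Pdgfrb was closest to Ndufa4l2 (0.423) and Cygb (0.422), and Notch3 to Kcnj8 (0.369). Pdgfra was closest to Serping1 (0.730) and Gsn (0.724), and Pdgfb to the endothelial genes Cd36 (0.535), Mgll (0.532) and Kdr (0.522).

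For the Lin28 sort, the level over all cells of Lin28+ cKit- was set beside that of Lin28- cKit-. A gene was called where the ratio was at least 1.5 in either direction and its interval left out 1. Pdgfb, at 85.1 against 23.5 CPM, had a ratio of 3.62 (95% interval 3.25 to 4.02). Rgs5, at 209 against 58.0, had a ratio of 3.61 (3.38 to 3.86), and Pdgfa one of 3.22 (2.64 to 3.93). Pdgfra, at 20.7 against 241, had a ratio of 0.0857, Pdgfrb 0.218, Kcnj8 0.440 and Notch3 0.476. The other 3, Pdgfd (1.39), Abcc9 (1.18) and Vtn (1.07), were not called. Thus 3 of 10 genes were called higher and 4 lower, where 22.1% and 25.4% of 13765 genes tested were (47.5% in either direction). The share of members called is not far from that background, and the median log2 ratio was 0.17 for members and -0.08 for all genes. Levels over all cells cannot tell fewer cells of a type from less RNA per cell, and the 2 libraries differ in cell makeup.

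Within endothelial-like cells, a class large enough for both, 7 of the genes could be compared. Rgs5, at 310 CPM in Lin28+ cKit- against 121 in Lin28- cKit-, had a ratio of 2.56 (95% interval 2.25 to 2.91). Abcc9 had a ratio of 2.16 (1.17 to 4.05) and Pdgfra one of 0.425 (0.239 to 0.719). Pdgfb, at 211 against 203, had a ratio of 1.04 (0.916 to 1.18), and Pdgfa, Pdgfd and Kcnj8 were not called at 0.994, 0.754 and 0.925. So 2 of 7 were called higher and 1 lower, where 3.49% and 4.48% of 9826 genes were (7.97% in either direction). Without the cells holding at least 3 of the 6 genes the Rgs5 ratio was 2.75 (2.41 to 3.14), and Abcc9, at 1.97 (0.99 to 3.94), was no longer called.

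**Figure D5:**
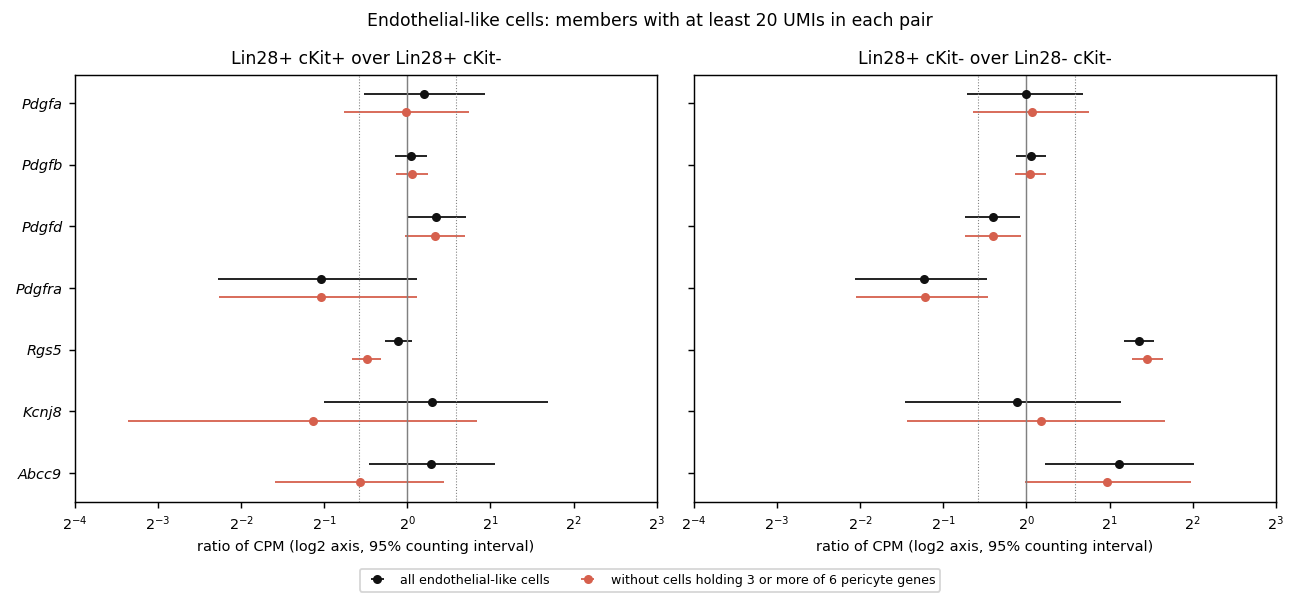
Ratios of level (points, log2 axis, with 95% counting intervals as lines) in endothelial-like cells for Lin28+ cKit+ over Lin28+ cKit- and for Lin28+ cKit- over Lin28- cKit-, over all such cells and without those holding at least 3 of the 6 genes; dotted lines mark 1.5-fold. Rgs5 is at 2.56 in the Lin28 sort and 0.927 in the cKit sort, while Pdgfb is at 1.04 and 1.03.

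For the cKit sort, Lin28+ cKit+ over Lin28+ cKit-, no member was called higher and 7 were called lower over all cells, where 1.77% and 8.02% of 12200 genes were (9.79% in either direction). The ratios were 0.186 for Pdgfra, 0.50 for Pdgfrb, 0.463 for Rgs5, 0.558 for Kcnj8, 0.538 for Abcc9, 0.322 for Vtn and 0.453 for Notch3. The 3 ligands were not called, with 0.903 for Pdgfa, 0.922 for Pdgfb and 1.15 for Pdgfd. Without the 5 and 9 mural-like cells of these libraries 5 genes were called lower, and Rgs5 and Kcnj8 were not. Fibroblast-like cells also differed, at 12 of 1176 cells in Lin28+ cKit+ and 40 of 681 in Lin28+ cKit-. The part of fibroblast-like cells in these ratios was not tested. Here too, and for the gene lists below, levels over all cells cannot tell fewer cells of a type from less RNA per cell.

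In endothelial-like cells, 0 of 7 members were called in the cKit sort, where 2.53% of 9415 genes were called higher, 3.76% lower and 6.29% in either direction. Rgs5, at 288 CPM in Lin28+ cKit+ against 310 in Lin28+ cKit-, had a ratio of 0.927 (95% interval 0.829 to 1.04), and Pdgfb one of 1.03. Without the cells holding at least 3 of the 6 genes the Rgs5 ratio was 0.71 (0.63 to 0.80), short of a call. In macrophage-like cells 4 of 7 were called lower, and 0 higher, where 5.02% and 1.54% of 10707 genes were (6.57% in either direction): Rgs5 (0.252), Kcnj8 (0.276), Abcc9 (0.430) and Vtn (0.117). Macrophage-like cells of Lin28+ cKit- included 2 cells that held 126 Rgs5 UMIs together and all 5 other genes. Without the 3 and 3 macrophage-like cells carrying at least 3 of the 6 genes, the Rgs5 ratio was 0.941 (0.597 to 1.5) and 0 members were called.

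Other genes of the pathways, from fixed lists, were counted in the same way. For PDGF signalling in the Lin28 sort, 7 of 25 genes were called higher and 4 lower over all cells (22.1% and 25.4% of all genes). The ligand Pdgfc (7.17) and Slc9a3r1 (6.95) led them. In endothelial-like cells 0 were higher and 2 of 23 lower, Plat (0.65) and Lrp1 (0.05), where 3.49% and 4.48% of all genes were. Fibroblast markers in endothelial-like cells with and without an Rgs5 UMI stood at 145 and 120 CPM in Lin28+ cKit-. In Lin28- cKit- they stood at 3291 and 3185 CPM, and their part in these 2 ratios was not tested. In the cKit sort 0 of the 25 PDGF signalling genes were called over all cells and 0 of 20 in endothelial-like cells. Further pericyte genes, 10 of which also served as markers, were mostly lower over all cells in the Lin28 sort, with 12 of 18 called lower (25.4% of all genes), including Tbx18 (0.13) and Ndufa4l2 (0.16), and 1 higher, at a list median of -1.06 on the log2 scale against -0.08 for all genes. In endothelial-like cells of the same pair 2 of the 8 that could be compared were lower (4.48% of all genes), Cox4i2 (0.55) and Ndufa4l2 (0.50), and 0 were higher.

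In the cKit sort, 8 of 15 further pericyte genes were lower over all cells (8.02% of all genes), among them Tbx18 (0.24) and Ednra (0.34). In endothelial-like cells 2 of 8 were higher (2.53% of all genes), Ndufa4l2 (2.00) and Des (1.69). Both are in the pericyte marker list, which had 146 UMIs in Lin28+ cKit+ endothelial-like cells with Rgs5. Of these, 52 lay in 1 cell that held 120 Rgs5 UMIs and all 5 other genes. The part of such cells in the 2 ratios was not tested. Smooth muscle genes were lower for 4 of 8 and higher for 1, Mylk (4.32), over all cells in the Lin28 sort (25.4% and 22.1% of all genes), and lower for 2 of 7 in the cKit sort (8.02%), Synpo2 (0.25) and Tagln (0.44). Of the Notch3 axis, its ligands and targets, 7 of 14 were higher and 2 lower over all cells in the Lin28 sort (22.1% and 25.4% of all genes), with Dll1 (2.63) and Dll4 (2.57) and with the mural target Heyl lower (0.11), while in endothelial-like cells Hes1 was higher (1.69) and Hey1 lower (0.62) among 12 compared (3.49% and 4.48% of all genes). In the cKit sort Hey1 was higher both over all cells (1.51) and in endothelial-like cells (1.75), and Jag1 lower (0.52 and 0.47). The cluster led by Hey1 made up 27.6%, 15.4% and 38.8% of endothelial-like cells in Lin28+ cKit+, Lin28+ cKit- and Lin28- cKit-. The part of these shares in the Hey1 and Jag1 ratios was not tested.

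Other regulators of G-protein signalling, the family of Rgs5, were higher for 7 of 10 over all cells in the Lin28 sort (22.1% of all genes), with Rgs18 (57.1) and Rgs1 (29.3), genes known from blood cells. In endothelial-like cells 2 of 7 were higher (3.49% of all genes), Rgs1 (12.2, from 21 and 3 UMIs) and Rgs2 (1.75). Macrophage markers made up 0.0276% of endothelial-like UMIs in Lin28+ cKit- and 0.00279% in Lin28- cKit-, and their part in these values was not tested. In the cKit sort 2 of 7 were higher in endothelial-like cells (2.53% of all genes), Rgs1 (1.85) and Rgs10 (1.61). Macrophage markers were higher in Lin28+ cKit+ here too. In endothelial-like cells with an Rgs5 UMI they stood at 424 CPM in Lin28+ cKit+ and 311 in Lin28+ cKit-. In those without, they stood at 479 CPM in Lin28+ cKit+ and lower in Lin28+ cKit-. The part of macrophage RNA in these 2 ratios was not tested. No further gene of the channel list had enough UMIs to be compared in either pair.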

How the data were processed

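Single-cell libraries were made with the 10x Chromium 3' v3.1 chemistry, per the labels' protocols. The submitters' processing notes name Cell Ranger, Seurat 4.0.2 and the mm10 build. The deposited tables hold the natural log of 1 plus 10000 times each UMI count over the cell's total. UMI counts were recovered from them: 100% of values came out whole within 0.01. Levels are CPM over a cell class with exact Poisson 95% intervals, and shares have exact Clopper-Pearson intervals. Ratios have exact conditional binomial intervals and were called at 1.5-fold or more, with the interval leaving out 1 and at least 20 UMIs in the pair, in classes of at least 50 cells per library. All cover counting error only; UMIs mark molecules, but a library is 1 sample. A count of 0 allows up to 3 counts.

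Cells were clustered with scanpy 1.11.5 and leidenalg 0.10.2 (2000 variable genes, 30 components, 15 neighbours, resolution 1). A cluster was named where at least 3, and at least 50%, of a list's markers were high, meaning at least 2-fold over the mean of other clusters and a UMI in at least 20% of cells. Pericyte and smooth muscle lists were joined after the values were seen. Scrublet marked 26 of 5833 cells (0.446%), too few to count as having worked, and no cell was removed. The promoter windows end where the GENCODE gene begins. No strand setting for counting is given in the sources used here, and Pdgfa, Pdgfb, Pdgfd, Pdgfra, Abcc9 and Notch3 overlap genes on the opposite strand, so reads of the partners may be included. The method was tested on simulated data. The simulated sums held counting error only, so the test does not cover variation between cells or libraries. The genes and lists were chosen with earlier results of these data known. All 10 members were named; in each further list the genes with the largest called ratios were named, up to 4. The results of 1 further list are not reported here.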

Additional observations from a re-analysis of the deposited data

Results flagged for a closer look

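In macrophage-like cells the Lin28+ cKit+ over Lin28+ cKit- ratio was 0.276 for Kcnj8 and 0.430 for Abcc9, whereas in endothelial-like cells it was 1.23 for Kcnj8 and 1.22 for Abcc9. The ratios thus lay on opposite sides of 1 in the 2 classes, but those of endothelial-like cells were not called, with intervals of 0.497 to 3.23 for Kcnj8 and 0.726 to 2.08 for Abcc9, and the difference was not tested. The macrophage-like Kcnj8 values rest on 6 UMIs in Lin28+ cKit+ and 14 in Lin28+ cKit-. Without cells holding at least 3 of the 6 genes the macrophage-like ratio was 1.60 for Kcnj8 and 0.760 for Abcc9, and the endothelial-like ratio 0.455 for Kcnj8 and 0.676 for Abcc9, with no call among them.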

How the results depend on the processing

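No paired analysis was possible because each population is 1 library. The number of members called over all cells in the Lin28 sort was 7 under every alternative run, and in the cKit sort it was 7 except without mural-like cells, where it was 5. In the Lin28 sort, endothelial-like calls numbered 5 in place of 3 with each cell classed on its own markers. In the cKit sort, endothelial-like calls numbered 2 with a mean over cells and 1 with cells classed singly, in place of 0. Macrophage-like calls there, 4, became 2 with at least 50 UMIs in the pair, 1 without the cells of highest Scrublet score and 2 with 1000 variable genes. They became 1 without the richest cell and 0 without cells holding at least 3 of the 6 genes, alternatives chosen after seeing the data.

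The share of Rgs5 UMIs in endothelial-like cells of Lin28+ cKit+, 68.7%, was 52.6% at resolution 2, 74.2% with 1000 variable genes, 56.7% with the members allowed in clustering, 84.6% with cells classed singly, 64.4% without the richest cell and 62.0% without cells holding at least 3 of the 6 genes. In Lin28+ cKit- it was 38.2%, and 32.5% at resolution 2, 67.3% with cells classed singly, 31.9% after thinning and 42.0% without the richest cell. In Lin28- cKit- it was 20.5%, and 18.1%, 29.4%, 25.8% and 22.7% under those same alternatives. The Kcnj8 share in Lin28+ cKit+, 24.1%, was 10.3% at resolution 2 and with the members allowed, 69.0% with cells classed singly, 60% after thinning and 8.33% without cells holding at least 3 of the 6 genes. In Lin28+ cKit- it was 12.2%, and 54.1% with cells classed singly and 0 after thinning, and in Lin28- cKit- 2.20% and 4.23% after thinning. Before thinning, Lin28+ cKit+ and Lin28+ cKit- held only 58 and 74 Kcnj8 UMIs, so their thinned shares rest on few UMIs.

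The endothelial-like log2 ratio of Kcnj8 was 1.51 in place of -0.11 in the Lin28 sort with cells classed singly, and -0.59 in place of 0.30 in the cKit sort with a mean over cells; the causes were not tested. In macrophage-like cells of the cKit sort the log2 ratio of Kcnj8 was 0.68 in place of -1.86 without cells holding at least 3 of the 6 genes, and that of Vtn 0.36 in place of -3.09. Of 454 alternative values of members compared under the main clustering, 428 kept their call or lack of one, 20 lost the call, 2 gained it and 4 changed direction with a call on one side. The count of 5 with cells classed singly includes a member that had too few UMIs to be compared otherwise. Depth limits the pericyte genes in the Lin28+ cKit+ and Lin28+ cKit- libraries, where Kcnj8 had 58 and 74 UMIs, Vtn 29 and 64 and Notch3 35 and 55.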
